A study of Mus musculus with 1989 samples.

Results

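The genes described here are the solute carriers of mouse thymocytes, chosen by their symbol (Slc followed by a digit) and by a value above 0 in 2% or more of the cells of 1 scRNA-seq library. The table of that library held 8846 genes and 1993 cells, 123 of its genes had such a symbol, and 122 of these were above 0 in 2% of cells or more. The gene just outside the threshold, Slc25a24, was above 0 in 30 cells (1.51%), and the genes just inside were Slc23a4 (44 cells, 2.21%), Slc2a9 and Slc37a1 (46 cells each, 2.31%). Without the cells of the stage with the highest share, 2 members would have been under 2%, Slc17a9 (CD4sp left out, 1.9%) and Slc23a4 (ISP left out, 24 of 1830 cells, 1.31%). The library was made with a droplet-based 3′ kit from the thymus of male C57BL/6 mice aged 7 weeks, and a scATAC-seq table of thymocytes from mice of that age and sex included cells sorted as CD4, CD8, DN and DP. The labels name no treatment, mutation or transgene in any group. The mouse a cell came from was not given, so each stage of the scRNA-seq library and each sort counts as 1 sample, and no test between them was made.

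Solute carriers are membrane proteins that move nutrients, ions and metabolites across the plasma membrane and the membranes of organelles, either down a gradient or coupled to the movement of another solute. They bring in the amino acids, sugars, nucleosides and metals that growing cells use, they exchange ADP for ATP across the inner mitochondrial membrane, and they load the Golgi with nucleotide sugars. In the thymus, CD4-CD8- (DN) cells pass an immature single-positive stage (ISP) and a proliferating CD4+CD8+ blast stage (DPbla), then rearrange the TCRα chain as small resting cells (DPre), and after selection (DPsel) become CD4 or CD8 single-positive cells (CD4sp and CD8sp). T cells that are activated to grow are known to raise amino acid and glucose transporters, and the stages of the thymus alternate between growth and rest.

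By the substrate their families are known for, the 122 members comprised 29 mitochondrial carriers, 18 transporters of amino acids and peptides, 16 of metal ions and haem, 16 of nucleotide sugars and related molecules of the Golgi and ER, 14 of nucleosides, vitamins, lipids and other organic molecules, 13 of sugars and monocarboxylates, and 12 of inorganic ions and phosphate. The remaining 4 share only the symbol and are not transporters themselves (Slc9a3r1, a scaffold protein of the cell cortex, Slc7a6os, Slc4a1ap and the antisense transcript Slc36a3os). Of the members, 90 were above 0 in 5% of cells or more and 49 in 10% or more.

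The cells were clustered into 17 groups and named from marker genes of each stage. The largest classes were DPre-like (496 cells), DPbla-like (490) and DPsel-like (329), followed by ISP-like (163), CD8sp-like (152), CD4sp-like (150) and DN-like cells (78). Another 31 cells were NCL-like, with the cytotoxic genes Nkg7 and Klrd1 among their leading genes, 36 were antigen-presenting-like (APC) and 68 were left unnamed. Nkg7 was also among the leading genes of the CD8sp-like cluster, which scored 0.562 for CD8sp and 0.417 for NCL. From here on the suffix is left out, and each stage name stands for the cells that resemble it by their markers. The borders between ISP and DPbla and between DPbla and DPre cells were uncertain. A cluster of 151 cells led by DNA replication genes scored 0.264 for DPbla and 0.272 for ISP and was placed in DPbla because Myc was above 0 in 21.9% of its cells. The 65 cells of ISP cluster 14 had the DPbla markers Ube2c and Mki67 among their 10 leading genes and no ISP marker. DPre cluster 0 (200 cells) had no DPre marker among its 10 leading genes and the CD8sp marker Cd8b1, DPre cluster 8 (121 cells) had no stage marker among them, and DPre cluster 1 (175 cells) had Rag1. The rules that named these clusters were set after the clusters were seen, and for members described as higher or lower in comparisons with the ISP stage the level in each of its 2 clusters, 9 (98 cells) and 14, is therefore also given. Globin genes, the mark of erythroid RNA, summed to between 0.144 per 10000 in CD4sp cells and 0.914 in DN cells, with both listed globin genes of the table, Hbb-bs and Hbb-bt, among the leading genes of a DPsel cluster. The 4 APC markers summed to between 2.26 and 4.55 in the 7 stages, against 224.5 in APC. The 3 epithelial markers in the table summed to 1.64 in DN cells and to 0.287 to 0.589 in the other stages, the 4 B cell markers to 0.945 in DN cells and 0.0861 to 0.580 in the others, the 2 myeloid markers in the table to between 0.292 and 0.603, and the 5 NCL markers to 12.0 in CD8sp cells and 0.525 to 5.70 in the others. Their part in the levels given below was not tested.

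Levels are given in steps. Within a cell the distinct values of the quantile-normalised table were ranked, and the rank of a gene, its number of steps, stands for the molecule count behind the value. The level of a gene is its steps per 10000 steps of a stage, with an exact 95% Poisson interval that covers counting error only and not the spread between mice. Most members were sparse. Of 29540 member values above 0, 75.5% were 1 step and 96.9% were 5 steps or fewer. Together the members took 0.626% of all steps, and Slc25a5 alone gave 22.5% of that. The summed level of the members lay between 56.1 per 10000 in DPbla cells and 70.8 in DPre cells. It was 64.4 in DN, 63.7 in ISP, 69.4 in DPsel, 62.5 in CD4sp and 64.3 in CD8sp cells.

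The stage with the most cells above 0 moved with depth. The median cell had 10082 steps in the ISP stage, 5059.5 in DPbla, 3633 in DN, and between 1977 and 2399.5 in the later stages. In the untreated values the median ISP cell had 30 members above 0, the median DPbla cell 18, the median DN cell 17, and the median later cell 10 to 12. After each cell was thinned to 1300 steps, these medians were 6 in ISP, 6 in DPbla and 8 in DN cells, and 6.5 to 7 in the later stages. The share of cells above 0 was highest in the ISP stage for 100 of the 122 members before thinning and for 16 after it. After thinning the highest share fell in DN cells for 30 members, CD4sp for 22, DPre and DPsel for 17 each, CD8sp for 14 and DPbla for 6. The results below therefore use levels per 10000 steps, and shares of cells are given thinned with the unthinned share beside them.

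**Figure D1:**
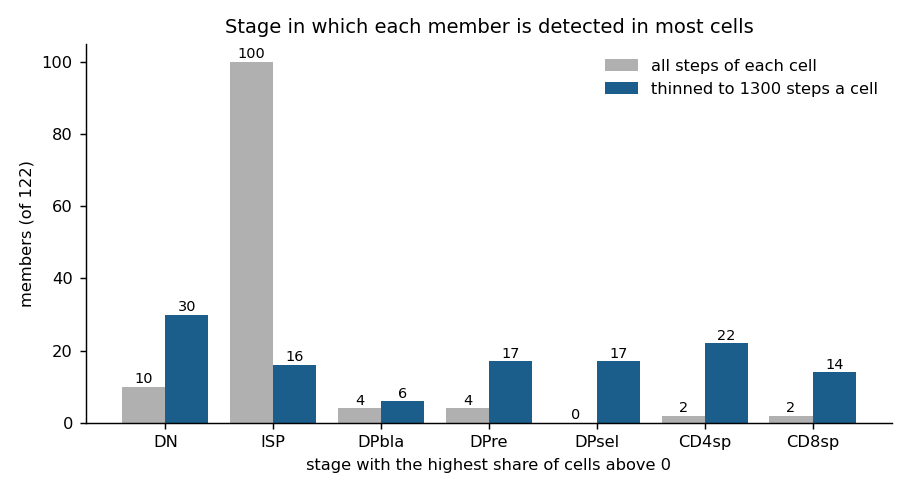
Number of the 122 members whose share of cells above 0 was highest in each stage (x axis), from all steps of each cell (grey bars) and after thinning every cell to 1300 steps (blue bars). The grey bar of the ISP stage holds 100 members and the blue one 16.

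Amino acid and peptide carriers reached 12.8 per 10000 (12.1 to 13.4) in DPre cells against 6.89 to 8.30 in the other 6 stages, and Slc7a11 gave 23.9% of the group's steps there. Mitochondrial carriers had the highest level of any group in every stage, between 27.5 (26.9 to 28.1) in DPbla and 35.5 (34.6 to 36.4) in ISP cells. Metal and haem carriers were highest in DN cells at 5.20 (4.44 to 6.06) and lowest in DPbla cells at 2.90 (2.70 to 3.11). Carriers of inorganic ions went from 4.29 (3.6 to 5.07) in DN to 2.47 (2.24 to 2.72) in ISP cells. Sugar and monocarboxylate carriers had 2.87 and 2.81 in the proliferating ISP and DPbla stages and 4.40 (4.02 to 4.81) in DPre cells. Nucleotide-sugar carriers lay between 4.25 in DPbla and 5.57 in DPsel cells. Among their most abundant members, Slc35b2, which carries the sulfate donor PAPS into the Golgi, had 0.766 in ISP and 0.314 in DPsel cells, whereas Slc35b1, an ATP exchanger of the ER, had 0.398 and 0.627. Counted by gene, the highest level fell in DN cells for 8 of the 16 metal carriers and 10 of the 29 mitochondrial carriers, and in DPre cells for 7 of the 18 amino acid carriers. Over all 8572 genes above 0 in 2% of cells, the highest level fell in DN cells for 20%, in ISP for 15.3%, in DPre for 16.3% and in DPsel cells for 13.7%. Among the members it fell in ISP cells for 5 of the 18 amino acid carriers and in DPsel cells for 5 of the 13 sugar and monocarboxylate carriers. The DN stage had the fewest steps (317309, against 2686918 in DPbla cells) and so the least precise levels.

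**Figure D2:**
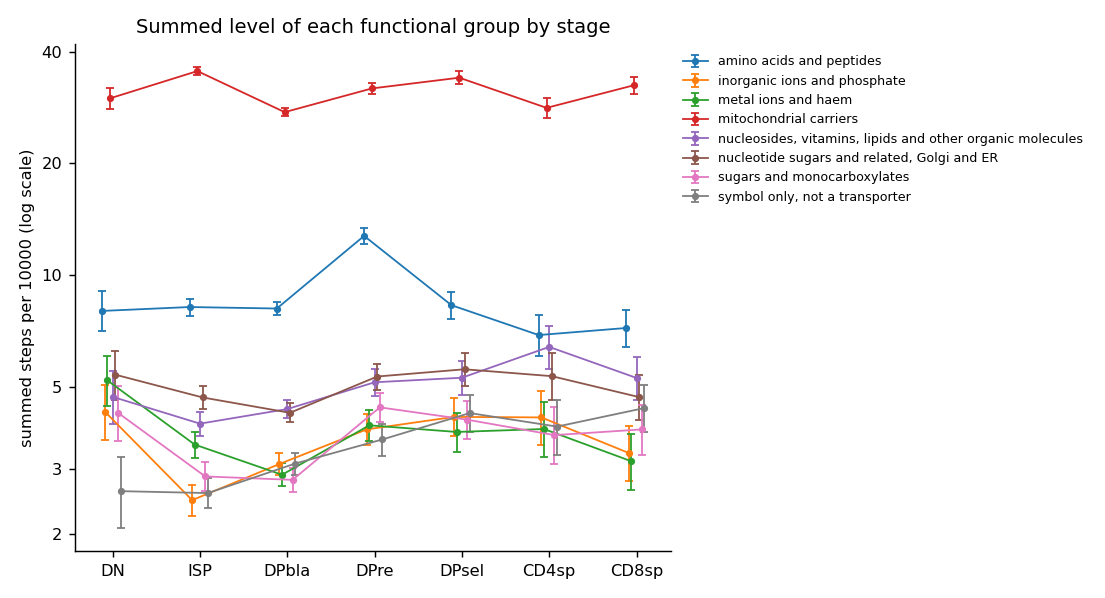
Summed level of each functional group (steps per 10000, log axis) by thymocyte stage, with exact 95% Poisson intervals as bars. Amino acid carriers peak at 12.8 in DPre cells, and mitochondrial carriers stay between 27.5 and 35.5.

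Levels of successive stages were compared by their ratio, and a gene was counted as higher or lower when the ratio was 2-fold or more. A gene entered a comparison with 30 steps or more in both stages together, and a stage with fewer than 3 steps was set to 3. The intervals of ratios are exact conditional binomial intervals and cover counting error only. Of the 122 members, 118 entered at least 1 of the 6 comparisons and 51 of them (43.2%) were 2-fold different in at least 1, beside 42% of the 8419 genes compared in all. Successive comparisons share a stage, so their counts are not independent. Since the cells were clustered on these same values, the stage differences describe the clusters and are not a test of them.

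**Figure D3:**
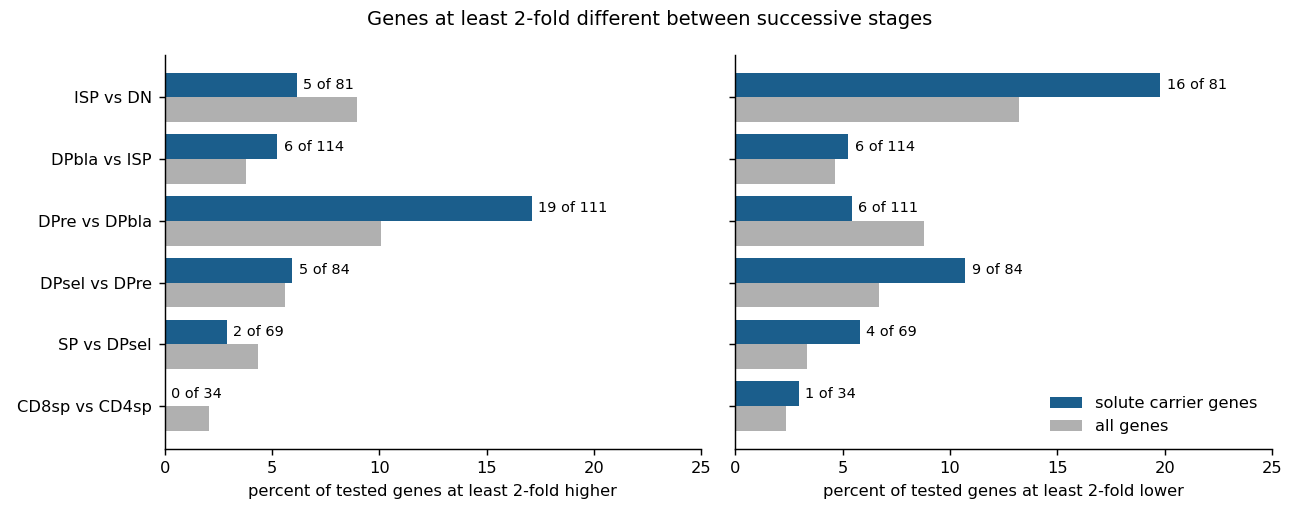
Percent of compared genes that were 2-fold higher (left) or lower (right) in the first-named stage of each comparison, for solute carrier genes (blue, with their number) and all genes (grey). Solute carriers reach 19.8% among those lower in ISP than in DN cells and 17.1% among those higher in DPre than in DPbla cells.

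From the DN to the ISP stage, the genes Slc7a5, Slc7a6, Slc7a1, Slc43a3 and Slc29a1 were higher and a larger number of members was lower. Of 81 members compared, 5 were 2-fold higher (8.98% of all genes were) and 16 were 2-fold lower (13.2% of all genes). The share of higher members, 6.17%, was thus below that of all genes. Members grouped with the amino acid carriers supplied 4 of the 5 that were higher, Slc43a3 being placed there by its family, and also 4 of the 16 that were lower. Other members of the same families were not 2-fold different, among them Slc43a1 (ratio 1.56, 0.714 to 4.06), Slc43a2 (0.835, 0.338 to 2.47) and the nucleoside transporter Slc29a3 (0.523, 0.256 to 1.15). The median log2 ratio was -0.37 over the members and -0.09 over all 7184 genes compared. The lower members were thus 19.8% of those compared, and for 17 of the 21 members called the counting interval left out 1. After thinning, 6 members still had 30 steps, of which 0 were 2-fold higher and 1 lower. The share of all genes in thinned cells is not given, so these counts are not read against it.

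Slc7a5, the light chain of the large neutral amino acid transporter LAT1, had 2 steps in DN and 93 in ISP cells, or 0.0630 and 0.544 per 10000, with a ratio interval of 2.32 to 72.3. Its level was then 0.197 in DPbla, 0.0536 in DPre, 0.114 in DPsel, 0.172 in CD4sp and 0.0711 in CD8sp cells. The ISP level was thus the highest, and the intervals of the stages from DPre on overlapped. The 68 unnamed cells had 0.415 (0.167 to 0.855), from 7 steps. In thinned cells Slc7a5 was above 0 in 8.59% of ISP and 0.605% of DPre cells, and unthinned in 39.3% and 1.21%. Both ISP clusters held it, at 0.661 (0.501 to 0.857) and 0.425 (0.297 to 0.588). The DPbla cluster of uncertain name had 0.360 (0.237 to 0.524), between them and the other DPbla clusters, which had 0.0785 to 0.164.

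Slc3a2, the CD98 heavy chain that Slc7a5 and Slc7a11 need at the cell surface, had another order of levels. Its level was 0.630 per 10000 in DN, 0.819 in ISP, 0.573 in DPbla, 0.696 in DPre, 1.33 in DPsel, 0.603 in CD4sp and 0.947 in CD8sp cells. It was highest in DPsel cells (1.07 to 1.62), where Slc7a5 had 8 steps.

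Slc7a1, a cationic amino acid transporter, went from 0.158 per 10000 in DN to 0.526 in ISP cells, a ratio of 3.34 (1.38 to 10.5). It was 0.212 in DPbla and 0.0803 in DPre cells. Slc43a3, a transporter of purine bases and other organic molecules, had 0.221 in DN and 0.515 in ISP cells (2.33-fold, 1.09 to 5.97), then 0.421 in DPbla and 0.170 in DPre cells. The equilibrative nucleoside transporter Slc29a1 had 0.567 in DN, 1.29 in ISP and 1.68 in DPbla cells, and its ratio from DN to ISP was 2.27 (1.40 to 3.90). From there it was 0.901 in DPre, 0.599 in DPsel, 0.459 in CD4sp and 0.450 in CD8sp cells. By cluster, Slc7a1 had 0.580 and 0.472, Slc43a3 0.487 and 0.543 and Slc29a1 1.36 and 1.22 in ISP clusters 9 and 14, so that neither cluster alone gave the ISP level. Slc7a6, another light chain of the Slc7 family, had 3 steps in DN and 42 in ISP cells (2.60-fold, 0.830 to 13.1), with 0.244 and 0.248 in clusters 9 and 14. Slc7a1, Slc43a3, Slc29a1 and Slc7a5 were all higher in both proliferating stages than in DPre cells. Slc29a1 was the only one of them with its highest level in the DPbla stage.

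On the other side, Slc5a9, a sodium-coupled sugar transporter, had its highest level in DN cells. It had 1.20 per 10000 in DN and 0.164 in ISP cells, and then 0.0521 in DPbla, 0.107 in DPre, 0.0713 in DPsel, 0.0861 in CD4sp and 0.0474 in CD8sp cells. The DN level was 7.31-fold (4.37 to 12.4) that of ISP cells, and the interval of no other stage reached it. In ISP clusters 9 and 14 it was 0.0928 and 0.236. After thinning, 15.4% of DN cells held Slc5a9, and between 0.658% and 2.45% of the cells of the other stages did. Unthinned, these shares were 33.3% and 1.32% to 12.3%. Slc25a20, the mitochondrial carnitine and acylcarnitine carrier, was 4.12-fold (2.38 to 7.07) higher in DN than in ISP cells, at 0.819 and 0.199. It was 0.201 in DPbla and 0.428 in DPre cells and stayed between 0.328 and 0.488 in the later stages. The endosomal sodium-proton exchanger Slc9a9 was 3.20-fold (1.71 to 5.82) higher in DN cells and the haem transporter Slc48a1 2.92-fold (1.92 to 4.37). In ISP clusters 9 and 14, Slc25a20 had 0.220 and 0.177, Slc9a9 0.162 and 0.212 and Slc48a1 0.418 and 0.425. Slc48a1 then kept levels between 0.316 and 0.421 in all 6 later stages, against 1.23 in DN cells. It overlaps Hdac7 on the other strand, and Hdac7 had 2.71 in DN, 1.71 in ISP and 3.18 in DPre cells.

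**Figure D4:**
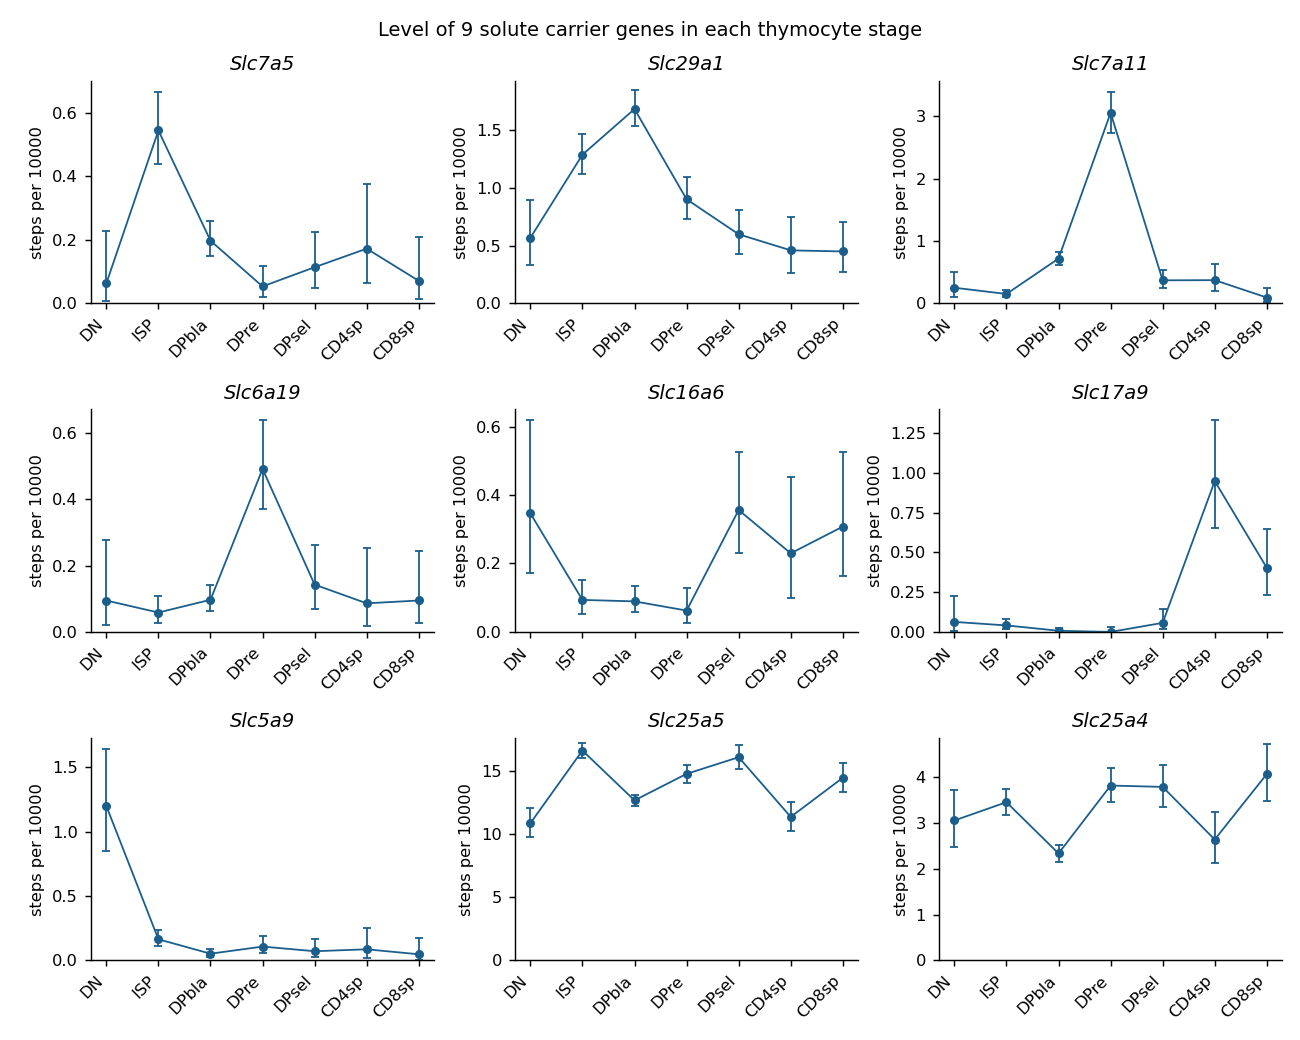
Level of 9 members (steps per 10000, y axis from 0) in each thymocyte stage, with exact 95% Poisson intervals as bars that cover counting error only. Slc7a5 peaks in ISP cells at 0.544, Slc7a11 in DPre cells at 3.05, Slc17a9 in CD4sp cells at 0.948 and Slc5a9 in DN cells at 1.20, whereas Slc25a5 stays between 10.9 and 16.6.

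Between the ISP and the DPbla stage, the amino acid carriers Slc7a5 and Slc7a1 were lower and Slc7a11 higher. Of 114 members compared, 6 were 2-fold higher (3.81% of all genes were) and 6 were 2-fold lower (4.66% of all genes), or 5.26% of the members each way, near the shares of all genes. Those lower in DPbla cells were Slc7a5 (2.76-fold, 1.95 to 3.94), Slc7a1 (2.48-fold, 1.76 to 3.52), the reduced folate carrier Slc19a1 (2.67-fold, 1.55 to 4.67), Slc5a9 (3.14-fold, 1.60 to 6.46), Slc23a4 (3.84-fold, 1.70 to 9.48, a member only through its ISP cells and so given as a description) and the mitochondrial aspartate-glutamate carrier Slc25a13 (2.25-fold, 1.24 to 4.13). In thinned cells the log2 ratio of Slc5a9 was -0.78, under 2-fold, against -1.65. In ISP clusters 9 and 14, Slc19a1 had 0.186 and 0.271, Slc23a4 0.139 and 0.118 and Slc25a13 0.186 and 0.165. Those higher were led by Slc7a11, at 0.152 and 0.718 per 10000, and by Slc37a2, a sugar-phosphate carrier, at 0.0526 and 0.182 (3.47-fold, 1.68 to 8.02, or 1.79 on the log2 scale). In thinned cells, with 2 steps in ISP and 15 in DPbla cells, the log2 ratio of Slc37a2 was 0.73 and thus under 2-fold. Slc43a2, a transporter of neutral amino acids, had 0.158 in ISP and 0.395 in DPbla cells, a ratio of 2.50 (1.63 to 3.97). This ratio changed sign in thinned cells, where 10 steps in ISP and 26 in DPbla cells were left and their log2 ratio per thinned step was -0.21. Slc25a10, the mitochondrial dicarboxylate carrier, had 0.0994 and 0.216 (2.17-fold, 1.25 to 3.98). Its log2 ratio of 1.12 was 0.73 in thinned cells, 0.93 with clusters built without Slc genes and 0.54 with stages named by the highest marker score alone, under 2-fold in each. In ISP clusters 9 and 14, Slc37a2 had 0.0580 and 0.0472, Slc43a2 0.186 and 0.130 and Slc25a10 0.0812 and 0.118.

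From the DPbla to the DPre stage, 19 of 111 members were 2-fold higher (10.1% of all genes were) and 6 were 2-fold lower (8.8% of all genes). The median log2 ratio of all 8123 genes was 0.19 here, against 0.38 over the members, and the counts include this common shift. With levels scaled by that median, 10 members were higher (6.36% of all genes) and 13 lower (11.3% of all genes). Of the 6 lower members, Slc7a5 (3.68-fold, 1.59 to 10.5), Slc7a1 (2.64-fold, 1.3 to 6.07) and Slc43a3 (2.48-fold, 1.52 to 4.27) were those that had been higher at the ISP stage. With stages named by the highest marker score alone, the log2 ratios were -0.85 for Slc7a1, against -1.40, and -0.96 for Slc43a3, against -1.31, both under 2-fold. The others were the mitochondrial carriers Slc25a25 (2.99-fold, 1.27 to 8.59) and Slc25a10 (2.20-fold, 1.14 to 4.65) and the Golgi UDP-N-acetylglucosamine transporter Slc35a3 (2.27-fold, 1.10 to 5.26).

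The members that were higher in DPre cells came from all 7 functional groups of transporters. They included 4 amino acid carriers (Slc7a11, Slc6a19, Slc43a2 and Slc38a9), 4 mitochondrial carriers (Slc25a20, Slc25a36, Slc25a38 and Slc25a53), 3 metal carriers (Slc31a2, Slc39a1 and Slc39a13) and 3 carriers of nucleotide sugars (Slc35a2, Slc35a5 and Slc35b3). Slc6a19, a sodium-coupled neutral amino acid transporter known from gut and kidney, was at 0.0968 per 10000 in DPbla and 0.491 in DPre cells (5.07-fold, 3.13 to 8.43), and at 0.143 in DPsel cells. It had between 0.0585 and 0.0947 in DN, ISP, CD4sp and CD8sp cells, so that its DPre level stood above all of them. Slc28a2, a concentrative nucleoside transporter, had 0.0930 in DPbla and 0.366 in DPre cells (3.93-fold, 2.34 to 6.75) and kept 0.342, 0.287 and 0.450 in DPsel, CD4sp and CD8sp cells. The intervals of Slc28a2 overlapped in these 4 stages. The equilibrative Slc29a1 was thus highest in DPbla cells, where the concentrative Slc28a2 was near its lowest. Slc29a3, an equilibrative transporter of lysosomes, had 0.347 in DN cells and 0.143 to 0.223 in the later stages. Slc16a5, a member of the monocarboxylate transporter family, had 0.469 in DPbla and 1.5 in DPre cells (3.20-fold, 2.52 to 4.06) and 0.627 in DPsel cells. In DPre clusters 0, 1 and 8, Slc6a19 had 0.377, 0.931 and 0.168, Slc28a2 0.277, 0.520 and 0.307 and Slc16a5 1.01, 2.46 and 1.06. All 3 genes were thus highest in cluster 1, the one with Rag1 among its leading genes.

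Slc7a11 had the widest range of levels among members with 100 steps or more, a log2 ratio of 5.01 between its highest and lowest stage. It encodes xCT, the light chain of the cystine-glutamate antiporter that brings in cystine for glutathione synthesis. Its level was 0.252 per 10000 (8 steps) in DN, 0.152 (26 steps) in ISP, 0.718 (193 steps) in DPbla, 3.05 (342 steps) in DPre, 0.371 (26 steps) in DPsel, 0.373 (13 steps) in CD4sp and 0.0947 (4 steps) in CD8sp cells. It was thus high in DPre cells, intermediate in DPbla cells and low elsewhere. The ratio was 4.72 (3.13 to 7.42) from ISP to DPbla and 4.25 (3.55 to 5.10) from DPbla to DPre cells. From DPre to DPsel cells the level was 8.24-fold (5.52 to 12.8) lower. After thinning, Slc7a11 was above 0 in 29.2% of DPre, 9.18% of DPbla and 0 of 152 CD8sp cells. Unthinned, these shares were 41.3%, 24.1% and 2.63%. In the cells that are not developing thymocytes, Slc7a11 was above 0 in 0 of 31 NCL and, unthinned, in 8.33% of 36 APC.

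The level of Slc7a11 also differed within stages. Of the 3 DPre clusters, 2 had 4.11 (3.48 to 4.82) and 3.55 (2.99 to 4.18) per 10000 and the third, led by histone and mitotic genes, had 1.43 (1.06 to 1.87). The 4 DPbla clusters had 0.468, 0.709, 0.786 and 1.26, and the highest of them was led by Cdc20, Cenpf and Ccnb1. The ISP clusters had 0.162 and 0.142, and the 2 DPsel clusters 0.574 (the one with globin genes among its leading genes) and 0.170. Slc7a11 was itself among the leading genes of 2 DPre clusters. With clusters built without any Slc gene, the log2 ratio of DPre against DPbla cells was 2.25, against 2.09 with them. With stages named by the highest marker score alone, the log2 ratio of DPbla against ISP cells was 1.00, against 2.24.

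The scATAC-seq cells gave a measure that did not enter the choice of the members. Counts in the 4000-base peak nearest a transcription start were summed over the cells of a sort and divided by all counts of that sort in peaks. The sorts, named by their labels, held 182 DN, 125 DP, 119 CD4 and 116 CD8 cells, with totals of 1108749, 478264, 558091 and 494645 counts. A peak was found for 119 of the 122 members. Over members with 20 counts or more, the median ratio was 1.01 from DN to DP cells (79 members) and 1.01 from DP to CD4 and CD8 cells together (70 members), beside 1.03 and 0.965 over all genes. Both medians of the members were thus within 5% of those of all genes. In the cells whose label ends in a number from 4000 on, the median from DN to DP cells was 1.24 over 23 members and 1.13 over all genes.

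Of the 79 members compared between DP and DN cells, 4 were 2-fold higher (5.41% of all genes were) and 8 were 2-fold lower (8.31% of all genes). Of the 70 compared between single-positive and DP cells, 5 were 2-fold higher (6.63% of all genes were) and 7 were 2-fold lower (5.64% of all genes). Those higher in DP than in DN cells were Slc7a11, Slc25a32, Slc37a2 and the amino acid transporter Slc38a1. Those lower were Slc3a2, Slc39a3, Slc15a4, Slc16a6, Slc25a11, Slc35a1, Slc37a4 and Slc48a1. The counting interval left out 1 for all 4 of the higher and for 4 of the 8 lower members, and it included 1 for Slc15a4 (0.0290 to 1.08), Slc16a6 (0.168 to 1.22), Slc35a1 (0.110 to 1.31) and Slc48a1 (0.121 to 1.04). In the cells whose label ends in a number from 4000 on, which hold 32 DN cells, 2 of the 4 higher and 4 of the 8 lower members were still 2-fold different, with a sort under 3 counts set to 3. Those no longer so were Slc7a11, Slc38a1, Slc15a4, Slc16a6 (ratio 1.04), Slc35a1 (2 counts in DN and 3 in DP cells) and Slc25a11 (0.782, 0.180 to 3.40). Between single-positive and DP cells 3 of the 5 higher and all 7 of the lower members were, Slc3a2 and Slc35a1 being the others. Over all sorted cells the interval left out 1 for 3 of the 5 higher and 6 of the 7 lower members. The promoter of Slc7a11 was among those higher in DP and lower in single-positive cells. It had 16 counts in DN, 23 in DP, 0 in CD4 and 4 in CD8 cells, or 0.144, 0.481, 0 and 0.0809 per 10000. The DP level was 3.33-fold (1.69 to 6.75) that of DN cells. The ratio of single-positive to DP cells was 0.0790 (0.0199 to 0.231). Among the cells with label numbers from 4000, the Slc7a11 peak had 4 counts in DN (0.185 per 10000), 10 in DP (0.361) and 3 in single-positive cells (0.0328). The DP to DN ratio was 1.95 there, under 2-fold, with an interval of 0.564 to 8.54, and the ratio of single-positive to DP cells was 0.0907 (0.0160 to 0.352). Slc38a1, with 2 counts in DN and 4 in DP cells of this subset, had a DP to DN ratio of 1.56 (0.224 to 17.3), against 2.32 (1.06 to 5.09) over all sorted cells. The sort does not separate DPbla, DPre and DPsel cells, and an animal was not given for these cells either.

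Slc7a11 lies on the minus strand of chromosome 3 at chr3:49892526-50443614 in the GENCODE annotation and at chr3:50364936-50499087 in that of RefSeq (both GRCm38), and its peak at chr3:50441592-50445591 is centred 14 bases from an annotated transcript start. The promoter from RefSeq (GRCm38.p6, minus strand, chr3:50443564-50443863, 250 bases before the start and 50 after) is shown because it lies within the 4000-base peak in which this accessibility was counted, of which it is a small part. The capitals mark matches on either strand to TGATGNAA, the C/EBP-ATF response element that amino acid shortage is known to act through.
Slc7a11: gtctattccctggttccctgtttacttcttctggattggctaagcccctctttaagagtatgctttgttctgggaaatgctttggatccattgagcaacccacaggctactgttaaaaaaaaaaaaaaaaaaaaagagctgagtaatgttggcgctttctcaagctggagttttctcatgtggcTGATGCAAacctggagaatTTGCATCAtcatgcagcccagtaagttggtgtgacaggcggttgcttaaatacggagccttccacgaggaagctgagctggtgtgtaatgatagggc
The 2 matches lie 66 to 59 and 47 to 40 bases before the start, in opposite orientation. Of 27025 promoters of the same length, 4.06% held at least 1 such match, and of the 93 members with a RefSeq promoter 3 did (3.23%), the others being Slc50a1 and Slc9a9. The E-box CACGTG, searched in the same way, was not in the Slc7a11 window and was in 15 of the 93 members (16.1%) against 7.24% of all promoters. The antioxidant response core TGACNNNGC was in 23 members (24.7%) against 12.5%, and the ROR binding element AGGTCA in 9 (9.68%) against 16%. Neither was in the Slc7a11 window. The 27025 promoters were the first listed for each gene symbol, whether or not the gene was expressed in these cells. For a member with a peak, the promoter nearest the annotated start at that peak was taken instead. The members and all promoters were thus chosen in unlike ways, and their shares are not a like comparison. A match is a description of the letters and not a bound site.

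Slc3a2 and Slc39a3 had promoter counts that were lower in DP than in DN cells. The Slc3a2 peak (chr19:8710968-8714967) had 49 counts in DN, 9 in DP, 35 in CD4 and 20 in CD8 cells, or 0.442, 0.188, 0.627 and 0.404 per 10000. The DP level was 0.426 (0.184 to 0.876) of the DN level, and single-positive cells had 2.78-fold (1.36 to 6.39) the DP level. The heavy chain Slc3a2 and the light chain Slc7a11 differed in the sorts, with DP cells lowest for Slc3a2 and highest for Slc7a11. The peak of Slc39a3 (chr10:81035369-81039368), a zinc importer of the ZIP family, had 41 counts in DN, 3 in DP, 7 in CD4 and 8 in CD8 cells, and its DP to DN ratio was 0.170 (0.0336 to 0.532). In the cells with label numbers from 4000, Slc39a3 had 8 counts in DN and 1 in DP cells, a ratio of 0.0977 (0.00220 to 0.729) from the counts with no minimum set, and for Slc3a2 the ratio was 0.421 (0.142 to 1.14), while single-positive cells had 1.86-fold (0.828 to 4.89) the DP level of Slc3a2, under 2-fold. In the scRNA-seq cells Slc39a3 had 0.410 per 10000 in DN, 0.170 in ISP, 0.153 in DPbla, 0.286 in DPre, 0.128 in DPsel, 0.345 in CD4sp and 0.261 in CD8sp cells. The level of the DN stage was thus the highest, and that of DPsel cells the lowest. The RefSeq promoters of both (GRCm38.p6, minus strand, chr19:8713848-8714147 and chr10:81037266-81037565) are shown for comparison with Slc7a11. The RefSeq start of Slc3a2 is 912 bases from the annotated start nearest its peak centre, within the same peak. Both windows held no match to any of the 4 motifs and so have no capitals.
Slc3a2: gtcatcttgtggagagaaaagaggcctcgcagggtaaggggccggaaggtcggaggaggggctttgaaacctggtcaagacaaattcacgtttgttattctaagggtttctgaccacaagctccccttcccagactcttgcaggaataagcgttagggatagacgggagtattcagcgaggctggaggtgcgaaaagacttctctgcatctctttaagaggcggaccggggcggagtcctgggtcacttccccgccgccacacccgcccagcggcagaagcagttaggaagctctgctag
Slc39a3: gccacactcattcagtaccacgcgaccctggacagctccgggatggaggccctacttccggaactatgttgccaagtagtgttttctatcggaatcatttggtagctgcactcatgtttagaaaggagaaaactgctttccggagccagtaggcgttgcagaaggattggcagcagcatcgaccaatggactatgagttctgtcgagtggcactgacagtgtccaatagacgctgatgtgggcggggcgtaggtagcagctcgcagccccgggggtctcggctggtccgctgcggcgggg

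The peak of Slc7a5 had 37 counts in DN, 27 in DP, 22 in CD4 and 7 in CD8 cells, or 0.334, 0.565, 0.394 and 0.142 per 10000. Single-positive cells had 0.488 (0.279 to 0.857) of the DP level, and the DP to DN ratio of 1.69 had an interval from 0.991 to 2.86. In the cells with label numbers from 4000, Slc7a5 had 15 counts in DN and 19 in DP cells, a ratio of 0.990 (0.477 to 2.09), and single-positive cells had 0.334 (0.171 to 0.657) of the DP level. Slc6a19, highest in DPre cells, had 4 counts in DN, 8 in DP, 11 in CD4 and 2 in CD8 cells, and its DP to DN ratio was 4.64 (1.24 to 21.0). With fewer than 20 counts in DN and DP together, Slc6a19 was not among the members counted above. Slc37a2, also higher in DPre cells, had 17 counts in DN and 23 in DP cells, a ratio of 3.14 (1.60 to 6.25). Slc25a32, a mitochondrial folate and FAD carrier, had 42 counts in DN and 42 in DP cells (2.32-fold, 1.48 to 3.64), with 3 and 27 counts in the cells with label numbers from 4000 (7.03-fold, 2.16 to 36.2), and its peak is shared with the start of Dcaf13.

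**Figure D5:**
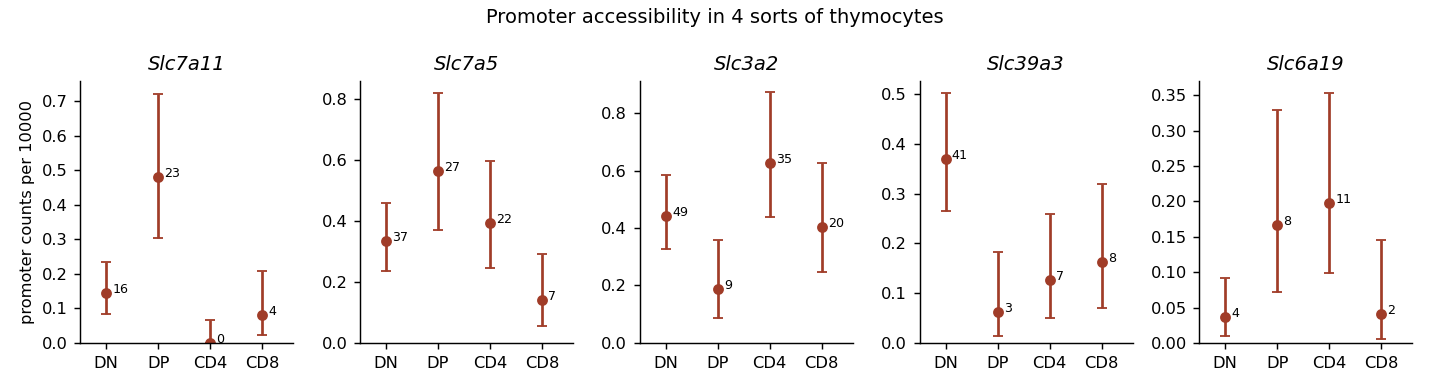
Counts in the promoter peak of 5 members per 10000 counts of each sort of scATAC-seq cells (y axis from 0), with exact 95% Poisson intervals as bars and the number of counts beside each point. Slc7a11 is at 0.481 in DP cells and at or below 0.144 in the other sorts, and Slc3a2 is lowest in DP cells at 0.188.

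Between the DPre and the DPsel stage, before and after selection, several amino acid carriers were lower and members of the monocarboxylate family differed both ways. Of 84 members compared, 5 were 2-fold higher (5.59% of all genes were) and 9 were 2-fold lower (6.69% of all genes). Beside Slc7a11, those lower were Slc43a1 (4.07-fold, 1.92 to 9.92), a transporter of branched-chain amino acids, Slc6a19 (3.44-fold, 1.74 to 7.58), Slc43a2 (2.35-fold, 1.5 to 3.82), Slc16a1 (2.94-fold, 1.86 to 4.83), Slc16a5 (2.39-fold, 1.71 to 3.41), Slc37a2 (2.28-fold, 1.24 to 4.46), Slc39a3 (2.23-fold, 1.04 to 5.30) and the bicarbonate transporter Slc4a7 (2.00-fold, 0.961 to 4.57). The amino acid carriers therefore gave 4 of the 9, and their median log2 ratio was -0.56 over 13 members compared, beside -0.01 over all 7101 genes. None of the 13 was 2-fold higher, Slc16a10 being grouped by its family with the monocarboxylate carriers.

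Slc16a1, the lactate and pyruvate transporter MCT1, kept 0.630 to 1.07 per 10000 from DN to DPre cells and 0.316 to 0.332 from DPsel cells on. The DPre and DPsel stages had nearly equal depth, with medians of 1998.5 and 1977 steps per cell. In thinned cells Slc16a1 was above 0 in 12.7% of DPre and 4.26% of DPsel cells, and unthinned in 18.6% and 6.69%.

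The 5 members that were higher in DPsel cells were Slc16a6, Slc16a10, Slc37a3, Slc9a9 and Slc35a1. Slc16a6, another member of the monocarboxylate transporter family, had 0.0625 per 10000 in DPre and 0.356 in DPsel cells (5.70-fold, 2.40 to 15.6), and 0.230 and 0.308 in CD4sp and CD8sp cells. It had 0.347 in DN cells too, so that its low values were those of the ISP, DPbla and DPre stages, at 0.0936, 0.0893 and 0.0625. Slc16a10, which carries aromatic amino acids, had 0.143 and 0.371 (2.60-fold, 1.34 to 5.18), and Slc37a3 had 0.0893 and 0.328 (3.67-fold, 1.68 to 8.65). Slc9a9 had 0.509 and 1.08 (2.13-fold, 1.49 to 3.06), its highest level of any stage. The log2 ratio of Slc9a9, 1.09, was 0.83 with clusters built without Slc genes and 0.95 in thinned cells, under 2-fold in both. Slc35a1, which brings CMP-sialic acid into the Golgi, had 0.321 and 0.670 (2.09-fold, 1.32 to 3.31). The monocarboxylate family thus had members in both directions, with Slc16a1 and Slc16a5 lower and Slc16a6 and Slc16a10 higher.

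From DPsel to single-positive cells, with CD4sp and CD8sp cells pooled, 2 of 69 members were 2-fold higher (4.36% of all genes were) and 4 were 2-fold lower (3.32% of all genes). The 4 lower members, Slc9a9 (3.09-fold, 1.97 to 4.99), Slc16a10 (3.17-fold, 1.44 to 7.70), Slc37a3 (2.30-fold, 1.08 to 5.22) and Slc35a1 (2.07-fold, 1.25 to 3.50), had DPsel levels that also entered the comparison before this one. The log2 ratio of Slc35a1, -1.05, was under 2-fold in 4 of the alternatives, at -0.98 with clusters built without Slc genes, -0.98 with scaling by the median ratio, -0.79 per cell with no scaling and -0.81 with stages named by the highest marker score alone. Slc16a6 had 0.356 in DPsel and 0.230 and 0.308 in the single-positive cells. The 2 higher members were Slc39a3 (2.33-fold, 1.04 to 5.71) and Slc17a9.

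Slc17a9 encodes the vesicular nucleotide transporter, which loads ATP into secretory vesicles. It passed the 2% threshold only through the single-positive cells, since it was above 0 in 20 of the other 1691 cells (1.18%), so its higher level there is given as a description. It had 2 steps in DN, 7 in ISP, 2 in DPbla, 0 in DPre, 4 in DPsel, 33 in CD4sp and 17 in CD8sp cells. Per 10000, this was 0.0570 in DPsel, 0.948 in CD4sp and 0.403 in CD8sp cells, and the single-positive level was 11.4-fold (4.18 to 43.4) that of DPsel cells. Thinned, 10.7% of CD4sp, 7.24% of CD8sp and 0 of 496 DPre cells were above 0. Unthinned, these shares were 18.7%, 9.87% and 0, and the count of 0 in DPre cells allows a share of cells with a step of up to 0.605% at this depth, which sets no limit on the cells that express the gene. Slc17a9 was also the only member 2-fold different between CD8sp and CD4sp cells, with the CD4sp level 2.35-fold (1.27 to 4.51) higher. The log2 ratio of CD8sp to CD4sp cells was -1.24, and it was -0.43 in thinned cells and -0.67 with stages named by the highest marker score alone, under 2-fold in both. In that comparison 0 of 34 members were 2-fold higher (2.07% of all genes were) and 1 was 2-fold lower in CD8sp cells (2.35% of all genes). The promoter peak of Slc17a9 had 15 counts in DN, 4 in DP, 9 in CD4 and 5 in CD8 cells, too few for the minimum of 20 counts in single-positive and DP cells together. Its single-positive to DP ratio was 1.59 (0.499 to 6.63), and in the cells with label numbers from 4000 it was 0.907 (0.275 to 3.86), in the other direction.

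Slc25a5, the ADP/ATP carrier ANT2, had 10821 steps over all cells, and its level was 10.9 per 10000 in DN, 16.6 in ISP, 12.7 in DPbla, 14.8 in DPre, 16.1 in DPsel, 11.4 in CD4sp and 14.5 in CD8sp cells. Its paralog Slc25a4 (ANT1) had 3.06, 3.46, 2.34, 3.82, 3.79, 2.64 and 4.07 in the same order, highest in CD8sp and lowest in DPbla cells. Both were lower in CD4sp than in CD8sp cells by less than 2-fold. The coding sequences of the pair are similar. Reads were counted with Cell Ranger at default settings, and whether reads that fit both genes affected these levels was not tested. Slc25a3, the mitochondrial phosphate carrier, was highest in ISP cells at 8.06 (8.13 and 7.99 in clusters 9 and 14) and lowest in DPre cells at 4.90. The amino acid transporters Slc38a1 and Slc38a2 had 0.718 to 1.24 and 0.971 to 1.71, with Slc38a1 highest in ISP and Slc38a2 in DPre cells. Slc44a2, a choline transporter-like protein, was lowest in ISP cells at 1.05 and highest in CD4sp cells at 2.93. The sugar transporter Slc50a1 had 0.421 in ISP and 1.46 and 1.52 in CD4sp and CD8sp cells. The scaffold gene Slc9a3r1 had 1.86 in DN and 3.16 in DPsel cells.

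Over the 33 members with 300 steps or more, the median log2 ratio of the highest to the lowest stage was 1.29, and 63.6% of them reached 2-fold. Over the 4521 genes of the table with as many steps, these values were 1.12 and 58.9%. Of the other membrane transport genes listed for comparison (among them ATP-binding cassette transporters, Mfsd family members, sodium and calcium pumps, and mitochondrial pyruvate, calcium and VDAC channels and carriers), 1 of 32 was 2-fold higher and 3 of 32 lower in ISP than in DN cells. For DPre against DPbla cells these were 6 and 0 of 38.

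Some members overlap another gene of the table on the other strand. Slc24a5, a potassium-dependent sodium-calcium exchanger known from pigment cells, was the ion carrier with the most steps (454). It had 0.934 per 10000 in DPbla cells and 0.201 to 0.526 in the other 6 stages. It overlaps Myef2 on the other strand of chromosome 2, and Myef2 was also highest in DPbla cells at 1.27, with 0.308 to 0.918 elsewhere. The reads were counted with Cell Ranger at default settings. Whether reads of either gene entered the counts of the other was not tested. Within the DPbla stage, Slc24a5 had 1.62 and 1.47 in the clusters led by G2/M genes such as Ube2c and Cdc20, and 0.520 and 0.667 in the others. Slc16a6 overlaps Amz2 and Slc43a2 overlaps Gm45606, each on the other strand. Amz2 had 1.27 in DPre and 0.912 in DPsel cells, with Slc16a6 at 0.0625 and 0.356. Gm45606 had 0.0526 in ISP, 0.0930 in DPbla, 0.268 in DPre and 0.128 in DPsel cells, with Slc43a2 at 0.158, 0.395, 0.839 and 0.356, so that both were highest in DPre cells among these 4 stages.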

How the data were processed

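The study measured thymocytes by droplet scRNA-seq (1 library) and by scATAC-seq of sorted and total cells. According to the submitters' notes and the study's methods, the scRNA-seq reads were counted with Cell Ranger 1.3.1 on GRCm38.p5, and the deposited values are log2 values after quantile normalisation of each cell. The deposited scATAC-seq table holds raw counts per 4000-base peak and cell. The authors mapped reads with Bowtie2, removed duplicates and called peaks once over the merged cells with MACS2. The build of the peaks is not stated in the table. Peak centres lay within 2 kb of a GENCODE start on GRCm38 for 32.7% of peaks, and for 14.3% after a shift of 100000 bases.

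Clustering used Seurat 5.3.0 (R 4.3.3) on 1306 variable genes with 20 principal components, 30 neighbours and a resolution of 2. Each cluster was given the stage whose markers had the largest mean z score. The rules for clusters with Mki67 in 50% of cells (ISP where Myc was above 0 in 50%) and for unnamed clusters (a score margin under 0.1 and no marker among the 10 leading genes) were set after the clusters were seen. Log2 values were turned into steps, which run from 1356 to 22539 per cell (median 2558). Steps are a lower bound for abundant genes. Doublets were not called; an alternative left out, cluster by cluster, the 5% of cells in which most genes were detected (107 in all). Cells were thinned to 1300 steps with Python 3.11.15 and numpy 2.4.6, and intervals were computed with scipy 1.17.1. The scripts were tested on simulated data. Of the scATAC-seq cells, 542 were used and 1446 without one of the 4 sort labels were not. The floor of a share is 3 counts.

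The members and gene lists were chosen with earlier results of these data known. The named genes were, in each comparison, up to 4 called members in each direction with the largest ratio and an interval that left out 1, the 3 members with most steps of each functional group, the members at the threshold, paralog pairs in 10% of cells or more, and Slc3a2 with Slc7a5. Other members were named to complete a list of called genes, and 1 named member is not reported here. Alternatives were another resolution, clusters without Slc genes, other scalings, thinned steps, higher minimums, and, for promoters, other cells and a 1 kb window.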

Additional observations from a re-analysis of the deposited data

How the results depend on the processing

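Depth limits most members to a few steps a stage. Per cell and with no scaling, the members higher and lower were 40 and 1 from DN to ISP, 1 and 58 from ISP to DPbla, 1 and 48 from DPbla to DPre, 4 and 2 from DPsel to single-positive, and 1 and 0 in CD8sp against CD4sp cells. The shares of all genes higher and lower were then 63.8% and 1.35%, 0.182% and 43.9%, 0.295% and 55.6%, 7.15% and 1.72%, and 5.1% and 1.02% in the same order. With thinned steps, which leave fewer members with 30 steps, they were 0 and 1 from DN to ISP, 1 lower from ISP to DPbla, 10 higher from DPbla to DPre, 2 higher from DPre to DPsel, 1 and 2 from DPsel to single-positive, and 0 lower in CD8sp cells. Of the members called with thinned steps, 0 of the 1 lower and 1 of the 4 higher from ISP to DPbla, 1 of the 5 lower from DPbla to DPre and 1 of the 2 higher from DPre to DPsel were among those called without thinning. With at least 100 steps they were 1 and 2 from DN to ISP, 2 and 2 from ISP to DPbla, 10 and 1 from DPbla to DPre, 1 and 4 from DPre to DPsel, 0 and 1 from DPsel to single-positive, and 0 lower in CD8sp cells, since fewer members were compared. Scaling by the median ratio gave 10 higher and 13 lower from DPbla to DPre. Stages named by marker score alone, chosen after seeing the data, gave 10 lower from ISP to DPbla, and the 1 member lower in CD8sp cells was then not Slc17a9. Members above 0 in 5% of cells gave 2 lower from ISP to DPbla, 1 higher from DPsel to single-positive and 0 lower in CD8sp cells. Clusters built without Slc genes gave 3 higher from DPre to DPsel, and leaving out the cells with the most detected genes gave 1 higher from DPsel to single-positive. The share of all genes is given only for levels per cell with no scaling and for scaling by the median ratio. The counts in the other settings have no such share beside them and are not read as a trait of the members. The cause of the moves between settings was not tested. A resolution of 1 gave no ISP or CD8sp class, so comparisons with these had no value.

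Without thinning, 100 members had their highest share of cells in the ISP stage, against 16. In sorted cells with label numbers from 4000, the median promoter ratio of the members was 1.237 from DN to DP (23 members) and 0.9893 from DP to single-positive, beside 1.129 and 0.9702 over all genes, and the cause was not tested. The log2 ratios of named genes were recomputed under 7 alternatives, and 27 of 250 fell under 2-fold, 12 of them per cell with no scaling, 6 with thinned steps, 5 with marker score alone, 3 with clusters built without Slc genes and 1 with the median scaling. Of these, 1 changed sign, that of Slc43a2 from ISP to DPbla with thinned steps (-0.209). Per cell with no scaling, those under 2-fold included Slc7a11 (0.81), Slc28a2 (0.70) and Slc16a5 (0.40) from DPbla to DPre and Slc25a20 (-0.68) and Slc9a9 (-0.31) from DN to ISP. A minimum of 100 steps leaves a ratio as it is and was not counted here. No paired analysis was possible because the library is 1 sample and the mouse of a cell was not given.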
